A study of Homo sapiens with 10 samples.

Results

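The replication-dependent histone genes were examined in an H3K27ac ChIP-seq data set from H1975, an established human lung adenocarcinoma line with mutant EGFR. H3K27ac is the acetylation of lysine 27 of histone H3, a mark of active promoters and enhancers. Members were chosen by name alone, as every annotated region whose gene symbol has a histone cluster form (H1-, H2AC, H2BC, H3C or H4C followed by a digit, or the older HIST names). This gave 172 regions of 57 genes, of 67387 annotated regions of 15633 genes and 169637 counted regions in all. Each region is 502 bp wide, and all 172 passed the filter on low counts.

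Each nucleosome wraps DNA around an octamer of the core histones H2A, H2B, H3 and H4, and linker histone H1 binds where the DNA enters and leaves it. Replication-dependent histone genes are transcribed mainly in S phase to supply histones for newly made DNA, and they lie in clusters at which the transcription and processing machinery for their transcripts is concentrated. Replacement histones, such as H2AJ, can also be made outside S phase, from genes that lie apart.

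DMSO cells were kept drug-free for 21 days and then given DMSO for 3 days. Osimertinib DTPs (drug-tolerant persisters) spent 24 days in osimertinib, which blocks mutant EGFR, at 500 nM. Osimertinib DTP + AZD5153 cells had 500 nM osimertinib for 21 days and then 150 nM AZD5153, a bivalent inhibitor of BET bromodomain proteins, for 3 days. The sample titles call this group a combo, but the labels do not otherwise say whether osimertinib was continued with AZD5153. Each group had 3 libraries, described as biological triplicates of the single line, and 1 pooled input was sequenced.

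The libraries held 6263443 to 10463351 counts over all regions. The lowest total was that of osimertinib DTP + AZD5153 replicate 3, whose Spearman correlation across regions with the other two of its group was 0.464 and 0.532, against 0.751 to 0.929 between replicates elsewhere. Counts of called histone regions, and medians by type, cluster and distance, are therefore also given without it. The deposited peak list of osimertinib DTP replicate 3 is named for H1875, whereas its label reads H1975. The 6 epithelial markers checked, EPCAM and KRT8 among them, had main regions at 15.9 to 70.6 CPM (library-scaled CPM, mean over 9 libraries). The lung markers NKX2-1, NAPSA, SFTPB and SFTA3 had main regions at 4.61 to 48.3 CPM. Of 10 markers of other cell types, 4 (PECAM1, VWF, COL1A1 and GFAP) had a region and 6, including PTPRC and CD3E, had none. The main regions of these 4 held 10.9 to 16.99 CPM. Summed over their 17 regions the level was 152 to 226 CPM in the DMSO libraries, 100.3 to 179.8 in DTP and 93.3 to 112 under AZD5153. The median log2 fold change of the 17 was −0.66 in DTP and −1.16 in AZD5153 against DMSO, with 14 and 15 negative, 2 and 4 called lower and 0 higher. The main region of GFAP fell in osimertinib DTP against DMSO (adjusted p = 0.0387, edgeR). The marker medians thus had the same sign as those of the histone regions, and the part of other cells in the results was not tested. The SFTPB main region fell under AZD5153 relative to DMSO (edgeR, adjusted p = 0.0276).

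The members fall into 2 histone clusters and a few places outside them. HIST1, on chromosome 6, held 155 regions in 3 blocks (same-chromosome regions within 500000 bp of each other). The first block, chr6:25991972-26322656 in hg38, held 106 regions of 29 genes. The second, chr6:27091806-27146463, held 14 regions of 4 genes, and the third, chr6:27792453-27895706, held 35 regions of 16 genes. HIST2, at chr1:149843463-149889184, held 10 regions of 5 genes. The remaining 7 regions lay outside the clusters, at genes that are not replication-dependent, H1-9 and H1-10 among them. Without these and the pseudogene H2BC20P there were 163 regions of 53 replication-dependent genes. By type they were 22 regions of 6 H1 genes, 31 of 12 H2A genes, 42 of 15 H2B genes, 21 of 8 H3 genes and 47 of 12 H4 genes. Promoters within 1 kb of a start made up 96 of the 172 regions, or 55.8%, against 36.1% of all annotated regions. Many of these genes have near-identical coding sequences, so reads of 75 nt within them cannot be placed with certainty, and a member's value may include reads of a copy.

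The promoters carry the motifs that the histone types are known for. Promoter windows from RefSeq (GRCh38.p14, 250 bases before to 50 after each start) were found for 50 of the 57 genes, 53 windows in all. Both strands were searched, and the motifs do not overlap each other in the stretches shown. CCAAT, the core of the NF-Y site, was in every H1, H2A, H2B and H3 window of the replication-dependent genes and in 3 of 10 H4 windows, against 34.6% of all 35116 windows. ATTTGCAT, the octamer of H2B promoters, was in 13 of 17 H2B and 9 of 12 H2A windows and in no H1, H3 or H4 window, against 1.77% of all. H2A and H2B genes often share a divergent promoter, so the same octamer can be counted for both. GGTCCG, part of the H4 subtype element, was in 9 of 10 H4 windows and 11.3% of all. TATAAA was in 67.9% of the histone windows and 11.5% of all, and TTTCGCGC, an E2F site, in 22.6% and 0.515%. The other motifs can be counted more than once in the same way, as in the overlapping windows of H2AC11 and H2BC11. H2BC12 and H2BC5 also each have windows that overlap. Stretches of the 180 bases before the RefSeq start follow, with these motifs in capitals. H1-5, H2AC16, H2BC14 and H3C8 are shown because their main regions had the 4 lowest log2 fold changes under AZD5153 against DMSO, and H4C8 because it had the most called regions.
H1-5 (chr6:27867589-27867768, minus strand): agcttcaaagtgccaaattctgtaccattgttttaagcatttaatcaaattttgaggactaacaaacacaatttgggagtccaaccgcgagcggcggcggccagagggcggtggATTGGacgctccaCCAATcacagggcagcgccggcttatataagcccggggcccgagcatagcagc
H2AC16 (chr6:27865137-27865316, plus strand): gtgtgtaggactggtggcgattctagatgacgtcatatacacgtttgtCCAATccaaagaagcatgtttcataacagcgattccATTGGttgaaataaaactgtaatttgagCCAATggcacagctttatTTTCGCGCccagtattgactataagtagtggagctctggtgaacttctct
H2BC14 (chr6:27814842-27815021, plus strand): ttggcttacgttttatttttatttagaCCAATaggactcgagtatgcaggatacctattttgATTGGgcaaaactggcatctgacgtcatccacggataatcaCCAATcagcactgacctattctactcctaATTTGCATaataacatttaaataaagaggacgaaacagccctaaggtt
H3C8 (chr6:26271414-26271593, minus strand): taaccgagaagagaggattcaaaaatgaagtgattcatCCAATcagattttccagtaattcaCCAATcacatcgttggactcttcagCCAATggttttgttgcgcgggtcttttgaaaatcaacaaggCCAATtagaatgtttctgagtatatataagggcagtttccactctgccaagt
H4C8 (chr6:26285535-26285714, minus strand): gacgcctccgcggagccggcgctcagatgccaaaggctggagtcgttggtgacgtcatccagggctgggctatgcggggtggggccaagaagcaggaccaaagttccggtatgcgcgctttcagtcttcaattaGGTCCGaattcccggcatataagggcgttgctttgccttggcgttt

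In these stretches H1-5, H2AC16, H2BC14 and H3C8 hold CCAAT or its complement 2 to 4 times each, H2AC16 also an E2F site and H2BC14 the octamer. H4C8 holds the H4 element alone of these motifs. Outside the stretches, the full window of H2AC16 also holds the octamer and that of H2BC14 TATAAA and an E2F site. The main region of H1-5, that is the promoter region with the highest mean count, lay 368 to 869 bases after the RefSeq start, and that of H2AC16 593 to 1094 bases after it. The main region of H4C8 lay 147 to 648 bases before its start.

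Histone regions took a smaller share of the counts in persisters, and a smaller one still after AZD5153. In DMSO they held 0.289% ± 0.0246 of the counts (SD, n = 3), in persisters 0.184% ± 0.0284, and after AZD5153 0.128% ± 0.0415. The 3 DMSO libraries ranged from 0.267% to 0.316%, above all 3 of osimertinib DTP (0.161% to 0.216%) and all 3 of osimertinib DTP + AZD5153 (0.0814% to 0.160%). Over all histone regions the 2 treated groups did not overlap either, though the DTP minimum and the AZD5153 maximum lay next to each other. In the 163 replication-dependent regions they overlapped, with AZD5153 replicate 1 at 0.156% and DTP replicate 2 at 0.151%. The same 2 libraries overlapped in HIST1, at 0.146% and 0.141%. In HIST1 the share went from 0.261% ± 0.0246 in DMSO to 0.163% ± 0.0277 and 0.113% ± 0.0444. In HIST2 it went from 0.0216% ± 0.000691 to 0.0150% ± 0.00286 and 0.00954% ± 0.00181. The regions outside the clusters held 0.00599% ± 0.000684, 0.00599% ± 0.00198 and 0.00584% ± 0.00477, with wide spread under treatment. AZD5153 replicate 3 was the lowest library in HIST1 and HIST2 and the highest outside the clusters. In the input HIST1 held 0.0891% of the counts, above the 0.0626% of AZD5153 replicate 3 and below every other library. Shares had no test.

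**Figure D1:**
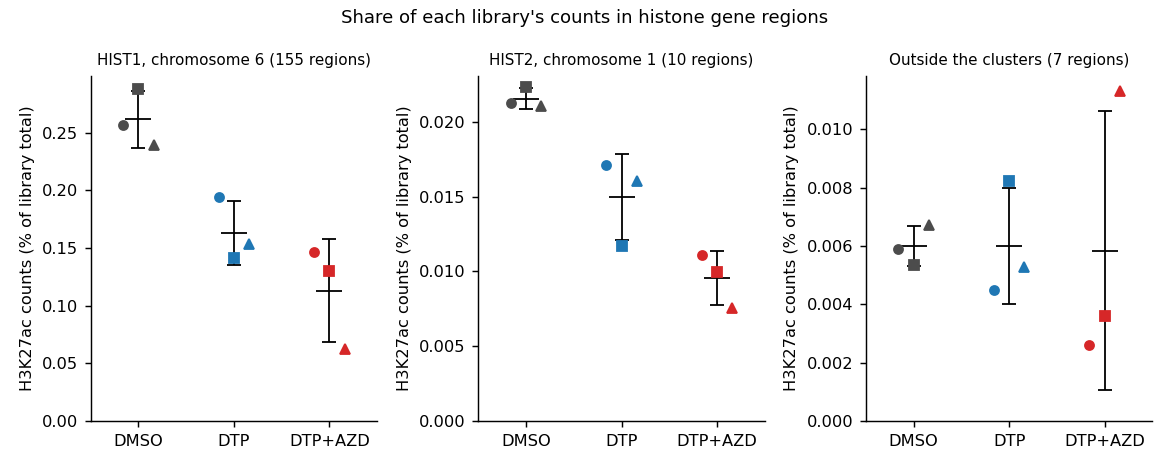
Percentage of each library's H3K27ac counts (vertical axis) in regions of HIST1, HIST2 and the genes elsewhere, by group (circle, square and triangle are replicates 1, 2 and 3, bars are mean ± SD, DTP+AZD is osimertinib DTP + AZD5153). In HIST1 and HIST2 all 3 DMSO libraries lie above all 6 treated libraries, whereas outside the clusters the groups overlap.

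The highest main regions were ranked by their mean over the 9 libraries, treated ones included, so these are not levels before treatment. Levels are TMM-scaled CPM, that is read counts relative to the library total scaled by edgeR's TMM factor, in order of replicate. H2BC15, a core histone H2B gene, had the highest mean over the 9 libraries, 36.6 CPM, followed among the leading HIST1 genes of each type by H1-2 at 34.96, H4C1 at 29.9, H3C2 at 29.0 and H2AC4 at 22.7. In HIST2 the leading genes were H2AC21 at 28.0 and H2BC21 at 26.8, and outside the clusters H1-10 at 25.4. Regions have equal width, so these levels compare regions, not whole genes. Over the 57 main regions the mean in DMSO ranged from that of H1-6, at 1.13 CPM, to that of H3C8, at 41.6 CPM.

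In osimertinib DTP against DMSO, which asks how the mark differs in cells that persist in drug, H3K27ac was lower at most histone regions, with a median log2 fold change of −0.70. The fitted change was negative at 156 of 172 regions, against 44.6% of all 157919 regions tested, whose median was 0.15. The histone median therefore lay 0.85 below that of all regions. Groups did not overlap, with DTP lower, at 109 of the 172 regions (63.4%), whereas this held for 18.9% of all regions. Past an adjusted p of 0.05 in edgeR's quasi-likelihood test, 13 regions of 6 genes fell and 0 rose. These 13 were 7.56% of the histone regions, close to the background of 5.13% of all tested regions that fell (5.58% rose) and to the 7.22% of annotated regions that did, so the count of calls is no result about the histone genes. At an unadjusted p under 0.05 there were 40 lower and 3 higher histone regions, against 12.2% lower and 13.7% higher of all regions. DESeq2 called 36 histone regions lower and 1 higher, against 9.76% and 7.91% of all regions. In bulk chromatin, fewer cells with the mark and less of it per cell cannot be told apart.

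The calls in osimertinib DTP against DMSO depended on single libraries. Without AZD5153 replicate 3, which enters through the shared estimate of spread, 44 histone regions were called lower and 3 higher, against 12.7% of all regions called lower in that fit. No region was called without DMSO replicate 2, DMSO replicate 3, DTP replicate 2 or DTP replicate 3, 1 was called without DMSO replicate 1 and 2 without DTP replicate 1. The fits with no histone call called 482 to 1836 of all regions lower. In these fits 31 to 33 histone regions had an unadjusted p under 0.05. Over all regions 28940 to 34692 of the 162949 to 164346 tested had such a p, in either direction. The histone share was close to that of all regions, so this count is no result about the histone genes. The median stayed between −0.81 and −0.52 in these fits.

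Of these calls, 6 were upstream of H4C8, a core histone H4 gene at the far end of the first HIST1 block, and 5 of them had the 5 lowest adjusted p. At chr6:26308700-26309201, annotated as distal intergenic and 23191 bp upstream of H4C8, the levels were 9.25, 5.58 and 6.74 CPM in DMSO, 1.63, 0.557 and 0.302 in DTP and 0.200, 0.233 and 0.773 under AZD5153. All DMSO libraries were above all treated libraries, and the log2 fold change in DTP was −3.07 ± 0.70 (SE, adjusted p = 0.0121, edgeR). At chr6:26309980-26310481, 24471 bp upstream, the levels were 17.8, 22.8 and 13.2 CPM in DMSO, 5.07, 3.76 and 1.81 in DTP and 1.70, 2.79 and 0.580 under AZD5153. The log2 fold change in DTP there was −2.33 ± 0.62 (adjusted p = 0.0240, edgeR). The neighbouring regions 9974 and 10603 bp upstream fell by 2.30 ± 0.63 and 2.59 ± 0.69 on the log2 scale in DTP (adjusted p = 0.0276 and 0.0253). The regions 22574 and 23820 bp upstream fell by 2.45 ± 0.63 and 2.12 ± 0.66 (adjusted p = 0.0209 and 0.0474).

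The main region of H4C8 itself changed less than these. It held 31.7, 43.3 and 26.95 CPM in DMSO, 23.5, 29.2 and 17.3 in DTP and 25.4, 29.2 and 8.504 under AZD5153, with overlapping groups and a log2 fold change in DTP of −0.54 ± 0.54 (adjusted p = 0.591, edgeR). Over the 8 regions more than 3000 bp from the H4C8 start the median log2 fold change was −2.31 in DTP against DMSO and −2.99 in AZD5153 against DMSO. Over its 3 regions nearer the start it was −1.09 and −1.66. The distal regions are assigned to H4C8 by the deposited annotation, as the nearest start, and which gene they act on was not measured. Left out of the count, they leave 7 histone regions called in DTP against DMSO.

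**Figure D2:**
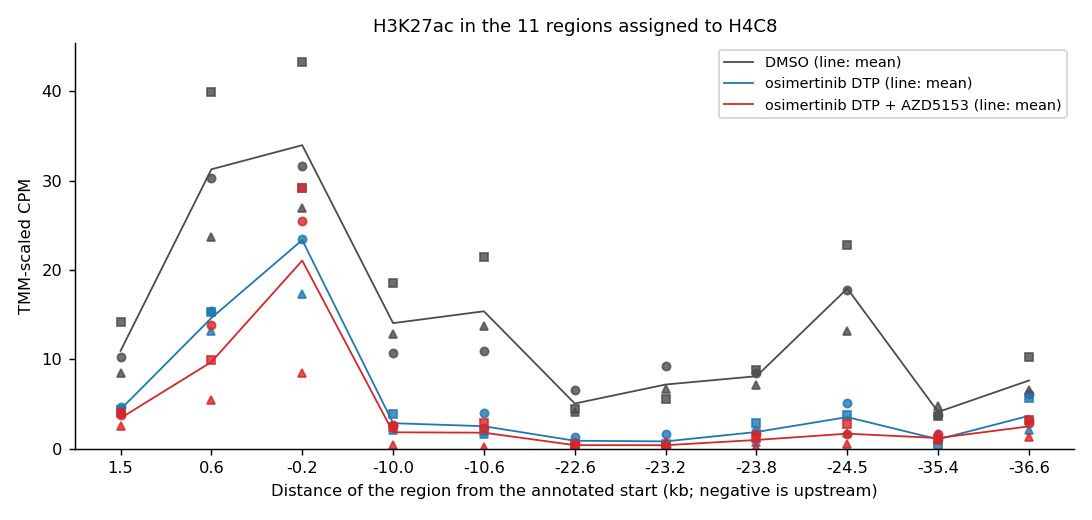
H3K27ac level (TMM-scaled CPM, vertical axis) in the 11 regions assigned to H4C8, ordered by distance from its annotated start in kb (horizontal axis, not to scale); symbols are replicates 1 (circle), 2 (square) and 3 (triangle), and lines join group means. At the 6 called regions, 9974 to 24471 bp upstream, DMSO libraries lie at 4.12 CPM or more and DTP libraries at 5.07 CPM or less, with no overlap within any region.

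The other 7 calls in DTP against DMSO lay at H1-5, H2AC16, H3C8, H4C6 and H2AC8. H1-5 encodes a linker histone, and its region over the start, chr6:27867520-27868021, had 10.2, 16.01 and 12.97 CPM in DMSO, 3.44, 4.45 and 2.11 in DTP and 2.60, 4.42 and 2.71 under AZD5153. Every DMSO library was above every treated library, and the log2 fold change in DTP was −1.97 ± 0.55 (adjusted p = 0.0297, edgeR). A second H1-5 region, 1622 bp upstream, fell by 2.195 ± 0.67 (adjusted p = 0.0432). H2AC16, an H2A gene next to H1-5, was the only one of the 57 whose main region was called. That region held 20.1, 30.5 and 13.3 CPM in DMSO, 6.69, 5.98 and 4.23 in DTP and 5.31, 4.89 and 3.29 under AZD5153. Again DMSO did not overlap with the treated groups, and the log2 fold change in DTP was −1.92 ± 0.55 (adjusted p = 0.0330, edgeR). The H3C8 region 743 bp after the start had 16.2, 26.95 and 17.5 CPM in DMSO and 6.98, 5.29 and 4.73 in DTP (log2 fold change −1.83 ± 0.53, adjusted p = 0.0357). At H4C6 a region 1846 bp after the start fell by 2.2 ± 0.68 (adjusted p = 0.0470), a call lost with a replicate block (adjusted p = 0.0642).

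Among main regions the next largest falls did not pass the test. H1-5 had 24.3, 37.5 and 25.1 CPM in DMSO and 10.2, 12.2 and 4.13 in DTP, without overlap (log2 fold change −1.71 ± 0.55, adjusted p = 0.0543, edgeR). The values for H2BC14, H4C13 and H3C8 were −1.27 ± 0.52, −1.18 ± 0.58 and −1.15 ± 0.48, with adjusted p of 0.126, 0.208 and 0.134. Over all 57 main regions 50 changes were negative and the median was −0.54.

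In osimertinib DTP + AZD5153 against DMSO, which asks for the joint difference from untreated cells, the median log2 fold change was −1.24, or 0.422-fold, against 0.23 over all regions. It was negative at 158 of 172 regions, and the groups did not overlap, with the treated libraries lower, at 131 (76.2%, against 19% of all regions). Of the histone regions, 53 regions of 30 genes fell past the threshold and 0 rose. These were 30.8% of histone regions, whereas 9.01% of all tested regions fell and 9.05% rose. At an unadjusted p under 0.05 there were 94 lower and 2 higher, against 15.3% and 16.6% of all regions. DESeq2 called 83 lower and 1 higher, against 11.9% and 12.9% of all. Without AZD5153 replicate 3, 78 regions were called lower and 1 higher, against 17.3% of all regions called lower in that fit. The count was 31, 17 and 20 without DMSO replicates 1, 2 and 3, and 26 and 29 without AZD5153 replicates 1 and 2. Calls over all regions fell in these fits too. From 14232 of 157919, those called lower became 9615 of 163069, 4526 of 164143 and 5843 of 163040 without DMSO replicates 1, 2 and 3. Without AZD5153 replicates 1 and 2 they were 8216 of 163269 and 11807 of 163327.

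The region with the lowest adjusted p was upstream of H1-1, a linker histone gene, at chr6:26018296-26018797, 564 bp before its start. It held 7.71, 6.40 and 8.75 CPM in DMSO, 4.40, 1.53 and 3.02 in DTP and 0.701, 0.465 and 0.580 under AZD5153. The 3 groups did not overlap, and the log2 fold change of AZD5153 against DMSO was −3.67 ± 0.64 (adjusted p = 0.00199, edgeR). The H4C8 region 23191 bp upstream followed at −4.26 ± 0.79 (adjusted p = 0.00261), and those 22574 and 24471 bp upstream at −3.57 ± 0.70 and −3.36 ± 0.65. At H4C11, an H4 gene of the third block, the region 943 bp upstream had 6.62, 5.89 and 7.84 CPM in DMSO, 2.199, 0.974 and 2.72 in DTP and 0.501, 0.582 and 1.16 under AZD5153 (log2 fold change −3.22 ± 0.65, adjusted p = 0.00386). The H2BC6 region 1050 bp after the start went from 7.16, 10.2 and 10.2 CPM in DMSO to 1.503, 0.814 and 0.773 under AZD5153, with DTP between them at 4.68, 1.25 and 3.83 (log2 fold change −3.11 ± 0.64, adjusted p = 0.00433).

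The other 4 of the 10 regions with the lowest adjusted p lay at H1-5 (1622 bp upstream, −3.68 ± 0.76), H2AC16 (2419 bp upstream, −3.49 ± 0.76), H2AC8 (1913 bp after the start, −2.87 ± 0.64) and H3C8 (743 bp after the start, −2.47 ± 0.55). All 10 passed the threshold in every fit that left out 1 library, where the highest adjusted p was 0.0490, for H3C8. None of the 10 overlaps the start of its gene.

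Of the 57 main regions, 8 fell in AZD5153 against DMSO: those of H1-5, H2AC16, H2BC14, H3C8, H3C12, H2BC8, H2BC7 and H1-3. H3C8, a core histone H3 gene, had the highest level of these in DMSO, at 38.6, 49.6 and 36.5 CPM, against 20.7, 19.9 and 15.6 in DTP and 11.9, 11.8 and 10.2 under AZD5153. The 3 groups were separate, with the DTP libraries between the others, and the log2 fold change of AZD5153 against DMSO was −1.88 ± 0.49 (adjusted p = 0.0149, edgeR). The largest change was at H1-5, with 6.71, 5.12 and 5.80 CPM under AZD5153 (−2.30 ± 0.57, adjusted p = 0.0109). H2AC16 and H2BC14 fell by 2.23 ± 0.56 and 2.01 ± 0.54 on the log2 scale. H3C12, in which AZD5153 replicate 3 was the lowest library at 1.55 CPM against 8.12 and 6.63, fell by 1.87 ± 0.60, or by 1.46 without that library. H2BC8 separated all groups as well, at 20.9, 33.7 and 20.01 CPM in DMSO, 15.9, 14.2 and 13.6 in DTP and 7.91, 8.26 and 4.64 under AZD5153 (−1.83 ± 0.53).

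**Figure D3:**
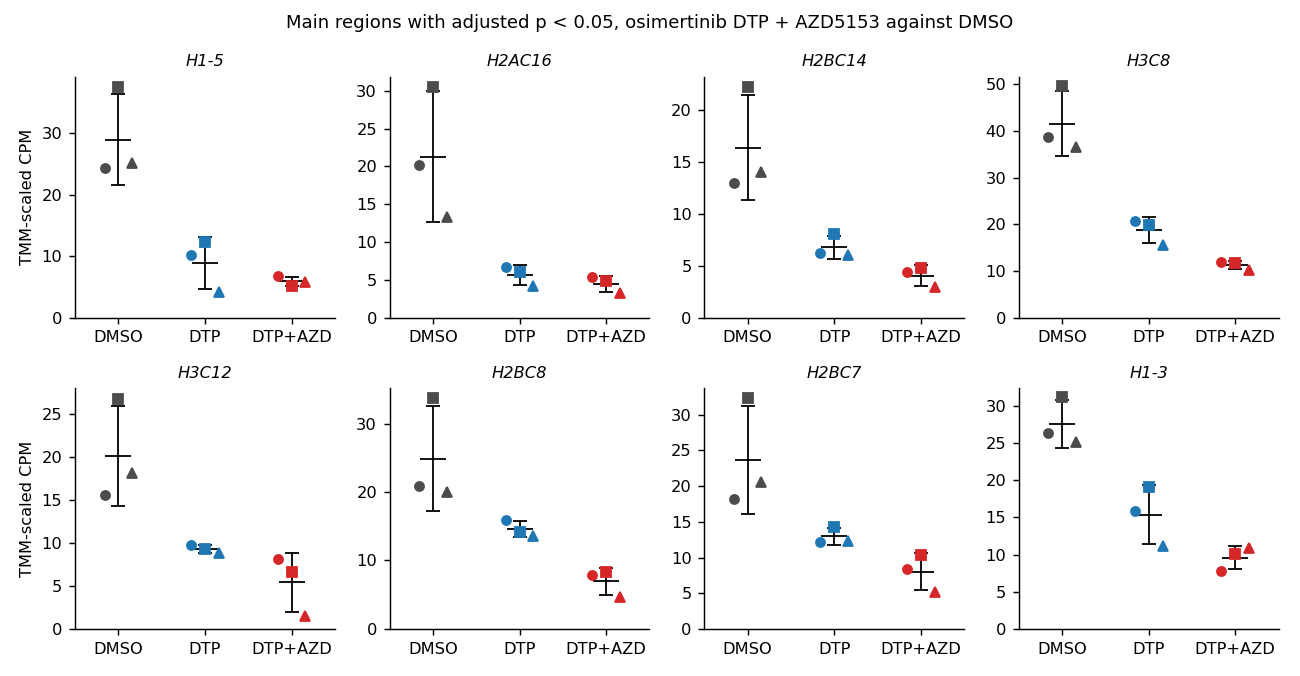
H3K27ac level (TMM-scaled CPM, vertical axis) in the 8 main regions with an adjusted p under 0.05 in osimertinib DTP + AZD5153 against DMSO, by group (circle, square and triangle are replicates 1, 2 and 3; bars are mean ± SD). All 3 DMSO libraries lie above all 3 AZD5153 libraries in every panel, and in H3C8 the DTP libraries, at 15.6 to 20.7 CPM, lie between them.

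All 5 histone types had negative medians in both comparisons with DMSO, which share the DMSO libraries. In DTP against DMSO the median log2 fold change was −0.70 for H1, −0.64 for H2A, −0.60 for H2B, −0.83 for H3 and −0.98 for H4, over replication-dependent regions. In AZD5153 against DMSO the same medians were −1.07, −1.19, −1.15, −1.50 and −1.58. Without AZD5153 replicate 3 the latter were −0.89, −1.22, −0.94, −1.27 and −1.30. Regions called lower in AZD5153 against DMSO numbered 8 of 22 for H1, 10 of 31 for H2A, 8 of 42 for H2B, 8 of 21 for H3 and 17 of 47 for H4. These numbers were 9, 16, 11, 11 and 25 without AZD5153 replicate 3. With main regions alone the order of the types was another one: H4 had the smallest median in AZD5153 against DMSO, −0.77, with 0 of 12 called, and H2B the largest, −1.24, with 3 of 15 called. Differences between the types were not tested.

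Both clusters had negative medians. In AZD5153 against DMSO the median was −1.30 in HIST1, with 50 of 155 regions called lower, and −1.19 in HIST2, with 2 of 10. The 3 HIST1 blocks had medians of −1.27, −1.09 and −1.50, in order along the chromosome, with 36 of 106, 3 of 14 and 11 of 35 called. Without AZD5153 replicate 3 the order of the clusters turned, with medians of −1.12 in HIST1 and −1.35 in HIST2 and 69 and 5 regions called lower. The blocks then had medians of −1.03, −0.88 and −1.30, with 46, 3 and 20 called lower. In DTP against DMSO the medians were −0.72, −0.66 and −0.90 in the 3 blocks and −0.58 in HIST2, and the 13 calls fell 9, 0 and 4 to the blocks and 0 to HIST2. The DTP calls lower numbered 27, 0 and 13 in the blocks and 1 in HIST2 without AZD5153 replicate 3. In HIST2 the called regions under AZD5153 were one annotated to H2AC19 (chr1:149845857-149846358), at 4.90, 4.13 and 6.94 CPM in DMSO against 1.60, 0.931 and 0.580 (−2.30 ± 0.64, adjusted p = 0.0202, edgeR), and the one 1719 bp into the pseudogene H2BC20P (−2.18 ± 0.62, adjusted p = 0.0218). The start that the deposited annotation gives to H2AC19 lies in the RefSeq gene H2AC18, a near-identical copy, so which copy the first region belongs to is uncertain. These 2 were named after their values were seen.

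Regions inside the clusters had negative medians and those around them did not. Other counted regions inside the same bounds numbered 54 and had median log2 fold changes of −0.86 in DTP and −1.32 in AZD5153 against DMSO. Only 2 of them, at HFE and BOLA1, are among the annotated regions. The others have no gene annotation, and whether they lie in or beside histone genes was not determined. Of the 54, 11 were called lower and 0 higher in AZD5153 against DMSO. Of all tested regions 9.01% were called lower there and 9.05% higher. In the 500 kb on each side the 227 other regions tested had medians of 0.43 and 0.38, with 14 called higher and 7 lower in AZD5153 against DMSO. Both flank counts are below the shares of all tested regions and are no result about the flanks. Values without AZD5153 replicate 3 are not given for these regions. Beside the third HIST1 block the flanking median was 0.83 and the inside median −2.84, over 44 and 10 regions. The contrast was smaller elsewhere. In AZD5153 against DMSO the first block had a flanking median of 0.38 and an inside median of −1.03, over 54 and 34 regions. HIST2 had 0.32 and −1.14, over 92 and 2 regions. The comparison of inside and flanking regions was added after the data had been seen. Of named neighbours within the cluster bounds, HFE, which controls iron uptake, had a log2 fold change of 0.87 (adjusted p = 0.328) and BOLA1, a mitochondrial protein gene between H2AC20 and H2AC21, of −0.66 (adjusted p = 0.382) in AZD5153 against DMSO.

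**Figure D4:**
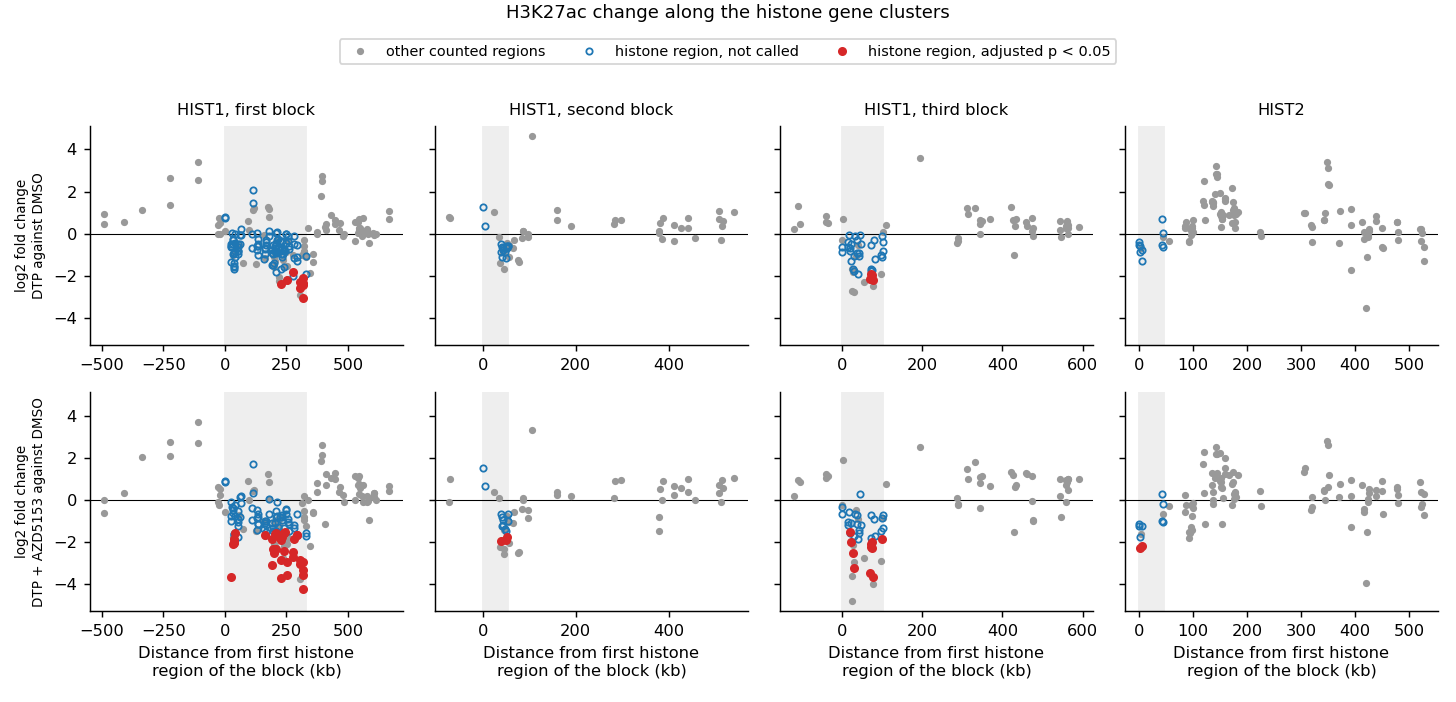
Log2 fold change (vertical axes; upper row osimertinib DTP, lower row osimertinib DTP + AZD5153, each against DMSO) of counted regions along the 3 HIST1 blocks and HIST2, by distance in kb from the first histone region of each block; grey bands span the histone regions, filled red circles are histone regions with an adjusted p under 0.05, open circles the other histone regions and grey dots other counted regions. Inside the bands most points lie below 0, and in the flanks, where the medians were 0.43 and 0.38, most lie above it, with some below it just outside the first and second blocks.

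The change was smallest within 500 bp of the gene starts, whereas the order of the farther bins depended on H4C8 and on AZD5153 replicate 3. In AZD5153 against DMSO the median log2 fold change was −0.97 over 69 histone regions within 500 bp of the annotated start, −1.38 over 27 at 501 to 1000 bp, −1.55 over 33 at 1001 to 2000 bp, −1.56 over 15 at 2001 to 3000 bp and −1.70 over 28 farther away. Over all annotated regions in the same bins the medians were 0.45, 0.16, 0.05, 0.04 and 0.03. In DTP against DMSO the histone medians were −0.54, −0.78, −0.72, −0.90 and −1.39. The value beyond 3000 bp rests in part on H4C8. The 20 regions at that distance from other genes had medians of −1.32 in AZD5153 against DMSO and −0.77 in DTP, so without H4C8 the change was no larger there than from 501 to 3000 bp in the former. Without AZD5153 replicate 3 the 5 medians of AZD5153 against DMSO were −0.79, −1.39, −1.18, −1.35 and −1.73, the last being −1.07 without H4C8. Differences between the bins were not tested. Levels differed along the same axis, from a median DMSO level of 20.2 CPM within 500 bp to 6.28 CPM beyond 3000 bp, and the part that level played was not tested.

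**Figure D5:**
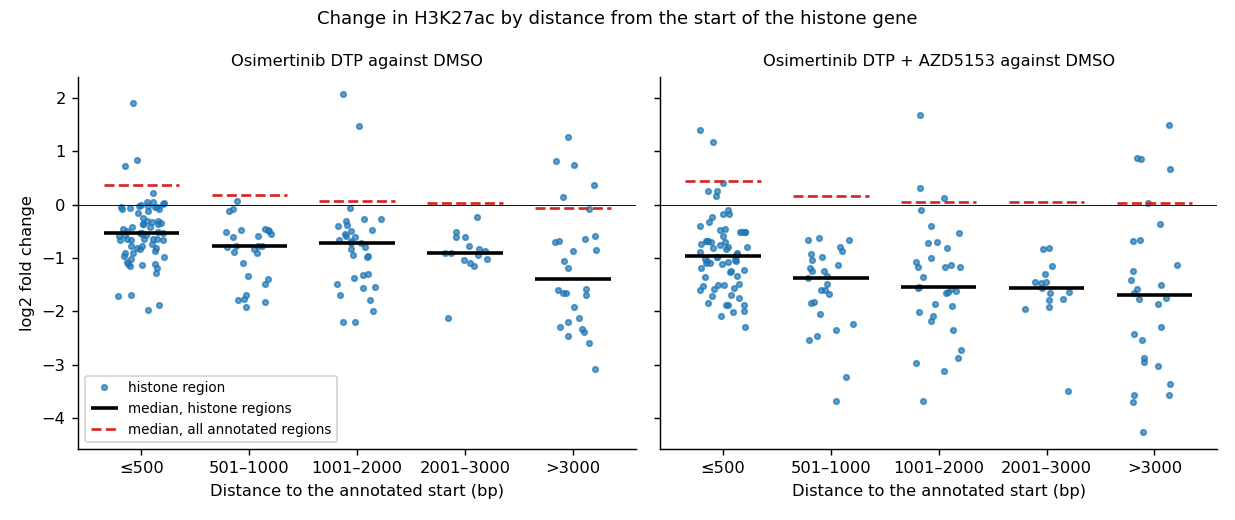
Log2 fold change (vertical axis) of the 172 histone regions by distance in bp to the annotated start of the gene (horizontal axis, 5 bins), in osimertinib DTP (left) and osimertinib DTP + AZD5153 (right) against DMSO; points are regions, black bars their medians and dashed red bars the medians of all annotated regions in the bin. Histone medians go from −0.97 to −1.70 in the right panel (beyond 3000 bp −1.32 without H4C8), below the medians of all annotated regions in every bin.

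AZD5153 against osimertinib DTP compares cells given AZD5153 for the last 3 days with persisters not given it. This comparison gave no called histone region, as it gave none among all 157919 (0% higher, 0% lower). In edgeR 6 histone regions had an unadjusted p under 0.05, all lower, which is close to the 2.85% of all regions that were lower at that p. DESeq2 called 0 histone regions, against 0.0431% of all regions lower and 0.0114% higher. The median log2 fold change was −0.50, against 0.06 over all regions, and 156 of 172 were negative. At 33 regions (19.2%) the AZD5153 libraries were all below the DTP libraries, against 5.4% of all regions. Without AZD5153 replicate 3 the histone median was −0.38 with 137 negative, and that of all regions −0.17. Among main regions 55 of 57 changes were negative, with the lowest at H2BC10, an H2B gene, at 13.8, 17.95 and 14.6 CPM in DTP and 8.92, 8.14 and 2.32 under AZD5153 (−1.24 ± 0.57, adjusted p = 1.00, edgeR). H2BC8, H2BC9, H4C5 and H3C7 followed at −1.06 ± 0.52, −0.92 ± 0.53, −0.87 ± 0.62 and −0.80 ± 0.54. In H4C5 the AZD5153 libraries held 26.1, 28.4 and 3.29 CPM, all below the 34.1, 40.6 and 31.1 of DTP, and without replicate 3 its value was −0.37. H2BC15 and H1-10 had the only positive values, 0.34 ± 0.50 and 0.33 ± 0.66, and the next were H1-2, H2BC12 and H2BC11 at −0.10, −0.11 and −0.12.

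Some members did not go with the rest. H2BC15 held 35.2, 41.4 and 28.2 CPM in DMSO, 33.4, 38.7 and 26.9 in DTP and 50.7, 54.6 and 20.1 under AZD5153. Replicates 1 and 2 were there above every DMSO library and replicate 3 below them all, for a log2 fold change of 0.26 ± 0.50 against DMSO (adjusted p = 0.771, edgeR). H2AC4 and H1-2, the leading H2A and H1 genes of HIST1, overlapped between all groups, with −0.24 ± 0.49 and −0.17 ± 0.50 in AZD5153 against DMSO. H2AC20 in HIST2 had 7.16, 8.05 and 5.03 CPM in DMSO, 8.89, 15.6 and 8.86 in DTP and 6.21, 8.73 and 9.28 under AZD5153, with log2 fold changes of 0.72 ± 0.52 and 0.25 ± 0.52.

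Among the 57 main regions, the largest positive values against DMSO were at H1 genes outside the replication-dependent set or specific to the testis. Other regions of replication-dependent genes also rose. In DTP against DMSO their highest value was 1.48 for H4 and 1.27 for H2B, both above that of H1-10. In AZD5153 against DMSO the highest H2B value lay above those of H1-9 and H1-10. The H1-6 region, 1592 bp from the start of this testis H1 gene, had 1.27, 0.826 and 1.31 CPM in DMSO, 4.49, 3.48 and 6.44 in DTP and 3.41, 6.52 and 0.966 under AZD5153. DTP was above DMSO in all libraries (log2 fold change 2.07 ± 0.66, adjusted p = 0.0531, edgeR). It was called without AZD5153 replicate 3, with an adjusted p of 0.00304 in DTP and 0.00363 in AZD5153 against DMSO. In DTP replicates 1 and 3 the H1-6 region had the same peak fold enrichment as the neighbouring H4C3 region, 1282 bp after the H4C3 start. Which gene the rise belongs to was not tested. H1-9, a spermatid H1 gene, had 3.90, 2.17 and 3.92 CPM in DMSO and 6.88, 11.6 and 19.0 in DTP (1.90 ± 0.69, adjusted p = 0.0832). H1-10, a replacement linker histone, had 13.3, 18.2 and 13.8 CPM in DMSO, 15.0, 53.4 and 12.6 in DTP and 13.02, 21.2 and 67.8 under AZD5153. DTP replicate 2 and AZD5153 replicate 3 alone stood above the DMSO range by a wide margin, and relative to DMSO it had 0.84 ± 0.67 in DTP (adjusted p = 0.479) and 1.17 ± 0.67 under AZD5153 (adjusted p = 0.248).

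The peaks that the authors called per library gave a second view of the same reads. In the DMSO libraries 168 to 170 of the 172 histone regions overlapped a peak by at least 1 bp. In DTP the number was 135 to 153, and under AZD5153 it was 140, 139 and 92. Over all annotated regions the share with a peak was 81.2% to 85.0% in DMSO, 84.1% to 84.9% in DTP and 83.2%, 81.8% and 64.1% under AZD5153. The median fold enrichment of the peaks at histone regions was 13.9, 19.5 and 14.6 in DMSO, 11.3, 16.02 and 10.2 in DTP and 10.99, 9.93 and 6.54 under AZD5153. At all annotated regions the median was 7.26, 10.97 and 7.91 in DMSO, 7.65, 14.8 and 7.91 in DTP and 10.97, 12.05 and 13.3 under AZD5153. Histone peaks thus had higher fold enrichment than the annotated median in the DMSO and DTP libraries and did not in AZD5153 replicates 2 and 3. Of 168 regions with a peak in all 3 DMSO libraries, 14 had none in any DTP library and 25 none in any AZD5153 library. Regions picked for their DMSO peaks can only lose peaks. The same count over all annotated regions was not made, so these counts are no result about the histone genes.

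Genes that control histone gene expression had no called main region. Of 29 such genes with a region, among them CASP8AP2, needed for histone transcription, and SLBP, which binds the stem-loop of histone mRNA, 0 had a called main region in either comparison with DMSO (lowest adjusted p 0.245 and 0.247, edgeR). Over all 95 regions of these genes 6 were called higher and 2 lower in DTP, and 7 higher and 4 lower in AZD5153 against DMSO. These counts are near or below the background of all regions, 5.58% higher and 5.13% lower in DTP and 9.05% and 9.01% in AZD5153 against DMSO, and are no result about these genes. A region 3260 bp upstream of CASP8AP2 had 1.27, 0.620 and 0.503 CPM in DMSO, 6.88, 9.32 and 7.96 in DTP and 12.4, 7.56 and 4.64 under AZD5153 (log2 fold change 3.30 in DTP, adjusted p = 0.00541). A distal region of CCNE1, a cyclin of entry into S phase, rose by 3.42 and 3.80 on the log2 scale in the 2 comparisons (adjusted p = 0.00574 and 0.00200). The regions called lower in AZD5153 against DMSO belonged to CDC25A, a phosphatase that activates cyclin-dependent kinases (3 regions), and GON4L (1 region).

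The genes listed as replacement histones had 36 regions of 11 genes. Of these regions 0 were called in DTP against DMSO (the lowest adjusted p was 0.0506, edgeR). In AZD5153 against DMSO 7 were called lower, none of them a main region. Of all tested regions 9.01% were called lower in that comparison, and of annotated regions 11.1%. H2AJ, a replacement H2A gene, had at 313 bp upstream of its start 17.05, 26.4 and 21.0 CPM in DMSO, 7.65, 9.46 and 7.65 in DTP and 3.71, 3.02 and 3.48 under AZD5153. The 3 groups were separate, with a log2 fold change of −2.65 in AZD5153 against DMSO (adjusted p = 0.00395, edgeR). CENPA, the centromeric H3, had a distal region that fell by 2.67 (adjusted p = 0.00463). Others were 2 regions of H4-16 and 1 each of H2AX and H2AZ2. H4-16, also named H4C16, encodes a core histone H4 and is not a replacement histone gene. Not all 7 calls therefore belong to replacement histones.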

How the data were processed

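The authors deposited a table of raw read counts per 502 bp region for 9 H3K27ac libraries and 1 input, an annotated version of it, and a peak list per library. In the peak lists the authors give each peak a score, a fold enrichment ratio and −log10 p and q values. Only peak positions and fold enrichments were used. The submitters' processing notes name hg38, BWA 0.7.17, MACS2 2.2.6, featureCounts 2.0.0 and ChIPseeker 1.29.1. The handling of duplicates and of reads with several matches is not given in the sources used here.

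Counts of all regions were fitted together with edgeR 4.0.16 (R 4.3.3): filterByExpr with a count minimum of 10, TMM factors, glmQLFit with robust estimation and glmQLFTest. Benjamini-Hochberg adjustment ran over the 157919 regions tested, with a threshold of 0.05. SE is the absolute log2 fold change divided by the square root of F. The 9 libraries shared 1 estimate of spread, and all p-values measure the spread between these libraries of a single line. The scripts were tested on simulated data. DESeq2 1.42.0 and other normalizations, filters, library sets and a replicate block were alternatives.

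Members and lists were chosen with earlier results of these data known, so no test was made over the members. Named regions were, by cluster and type, the main region with the highest mean level, in each comparison the 5 main regions with the largest rise and the 5 with the largest fall, and the called regions, or the 10 with the lowest adjusted p. Same-numbered DMSO and osimertinib DTP libraries deviated together from their group means (Pearson r across regions of 0.349, 0.368 and 0.341). The other group pairs did not meet this in every pair. Unless another fit is named, the log2 fold changes, SE and p-values come from the unpaired edgeR fit. The replicate block, which spans all groups, was run as an alternative only. One item is counted in the totals but not reported here.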

Additional observations from a re-analysis of the deposited data

How the results depend on the processing

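The median log2 fold changes kept their sign under every alternative run, at −0.83 to −0.52 in osimertinib DTP against DMSO, −0.64 to −0.36 in AZD5153 against DTP and −1.47 to −1.02 in AZD5153 against DMSO. Counts of called regions did not hold as well. In DTP against DMSO, 13 became 20 with a loess offset, 8 with no filter on low counts, 20 with annotated regions only, 42 with the libraries of both groups only, 37 with DESeq2, 0 at an adjusted p under 0.01, 7 without the distal regions of H4C8 (chosen after seeing the data) and 0 to 47 with 1 library left out. In AZD5153 against DMSO, 53 became 29 with the libraries of both groups only, 84 with DESeq2, 16 at an adjusted p under 0.01 and 17 to 79 with 1 library left out. In AZD5153 against DTP the count was 0 under all of these. Calls over all regions moved as well. In DTP against DMSO the 8107 of 157919 called lower became 9612 with loess and 7245 of 169637 with no filter. They became 5656 of 67387 with annotated regions only, 18728 of 146480 with the libraries of both groups only and 15406 with DESeq2. In AZD5153 against DMSO the 14232 called lower became 8491 of 142167 with the libraries of both groups only and 18870 with DESeq2. The cause of these shifts was not tested. With the replicate block the counts were 14, 61 and 0, and the pairing lost the call of H4C6 in DTP against DMSO. With main regions only the mean shares of counts were 0.146%, 0.101% and 0.0697% in DMSO, DTP and AZD5153, and over annotated counts they were 0.378% in DMSO and 0.242% in DTP.

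Signs reversed only near 0 or where 1 library stood apart. In DTP against DMSO, H1-10 ranged from −0.072 (without DTP replicate 2) to 1.27 with 1 library left out. H4C5 ranged from −0.11 to 0.43, and was −0.065 with loess and −0.045 with DESeq2. In AZD5153 against DTP with 1 library left out, H1-10 ranged from −0.66 (without AZD5153 replicate 3) to 1.26, H1-2 from −0.33 to 0.19, H2BC12 from −0.40 to 0.19 and H2BC11 from −0.44 to 0.28, the last 3 highest without AZD5153 replicate 3. With DESeq2 those 3 were 0.034, 0.025 and 0.011. In AZD5153 against DMSO, H2BC15 was −0.076 with loess. Of the values of 49 named region and comparison pairs under the alternatives, 710 kept their direction and side of the threshold, 80 lost the call, 26 gained one and 17 reversed.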
